A study of Mus musculus with 2 samples.

Results

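Ribosomal protein genes were taken as the genes of the EpA table whose symbol is Rps or Rpl followed by a number and, where present, the letters a, x, y or l or further digits. This gave 80 of the 17189 genes in that table, 31 for proteins of the small ribosomal subunit (Rps) and 49 for proteins of the large subunit (Rpl). The rule leaves out ribosomal proteins with other kinds of name, among them Rpsa, Rplp0, Rplp1, Rplp2, Fau and Gnb2l1 (Rack1), which are described separately. In the GENCODE vM21 annotation of mouse build GRCm38, 79 of the 80 are protein-coding genes, and they lie on 19 chromosomes.

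The injured library came from the spinal cord of mice 3 days after a dorsal funiculus incision, and the uninjured library from matching levels of intact cord. Both used adult C57BL/6J mice, at least 12 weeks old, that were Troy-CreERT2+/- and carried the Rosa26-tdTomato reporter, so that the Troy promoter decides which cells can be labelled. Segments of 5 mm were digested with papain, and tdTomato-positive cells were sorted for 10x Genomics 3′ single-cell libraries, which count unique molecular identifiers (UMIs). EpA is the authors' name for the ependymal cells, which line the central canal, that they kept for analysis: 1004 cells in the injured and 555 in the uninjured library. Another 224 injured and 156 uninjured cells were kept outside EpA. There was 1 library per condition and the number of mice in each is not given in the sources used here, so no difference between conditions has a replicate check and none was tested. All intervals are exact 95% intervals for counting error only.

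The ribosome is built of ribosomal RNA and one copy of most ribosomal proteins, which are made in the cytoplasm, assembled with ribosomal RNA in the nucleolus and exported as subunits. Their messenger RNAs are abundant in nearly all cells, and most start in a run of pyrimidines, the 5′ terminal oligopyrimidine (TOP) motif, through which mTOR signalling controls their translation. Transcript counts therefore do not give the amount of ribosome or the rate of translation. Ependymal cells carry motile cilia and rarely divide in the intact adult cord.

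Injured EpA cells held a sum of 25296289 UMIs, with a median of 20158.5 per cell, and uninjured EpA cells 7689179 UMIs, with a median of 11387. The median mitochondrial share of a cell's UMIs was 6.76% in injured and 11.2% in uninjured EpA cells. The ependymal transcription factor Foxj1 was present in both, at 233 CPM (counts per 1000000 UMIs of the library's EpA cells) in injured and 421 CPM in uninjured cells. The 2 libraries shared 18 barcode sequences, which were kept apart by library.

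Ribosomal protein genes contributed 15.5% of all UMIs in injured EpA cells (15.47 to 15.50%), against 7.64% in uninjured EpA cells (7.62 to 7.66%). Per cell this was 3901 UMIs in injured and 1059 in uninjured cells, while all other genes together gave 21294 UMIs per injured and 12796 per uninjured cell. The median gene of the family stood at 1951 CPM in injured and 888 CPM in uninjured cells. The balance between subunits hardly differed: the small-subunit genes gave 44.1% of the family's UMIs in injured and 42.6% in uninjured cells.

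Of the 80 genes, 77 reached 50 CPM in at least one library. Injured cells had 2-fold or more of the uninjured level for 37 of the 77 genes and no more than the inverse of that for 0. Over all 3706 genes at this floor, 10.9% were higher and 13.8% lower by the same rule. The higher genes were 16 of 31 in the small and 21 of 46 in the large subunit. All 77 ratios were above 1, as were 50.2% of those of all genes at the floor, and 76 had an interval wholly above 1, against 43.4% of all genes. A further 33 genes lay between 1.5-fold and 2-fold, and the interval's lower bound reached 2-fold in 35, against 9.09% of all genes. The count of 37 was 19 when every cell was weighted alike and 2 when only EpA cells of 5000 to 20000 UMIs were summed, and 75 when UMIs per cell were compared without scaling; 0 genes were lower in each case. The injured cells of 5000 to 20000 UMIs also differ in make-up from all injured EpA cells, as set out in the closing section. The median log2 ratio was 0.98 (SD 0.37 over the 77 genes, quartiles 0.84 and 1.26), against 0.00 over all genes at the floor. It was 1.04 for small-subunit and 0.94 for large-subunit genes.

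**Figure D1:**
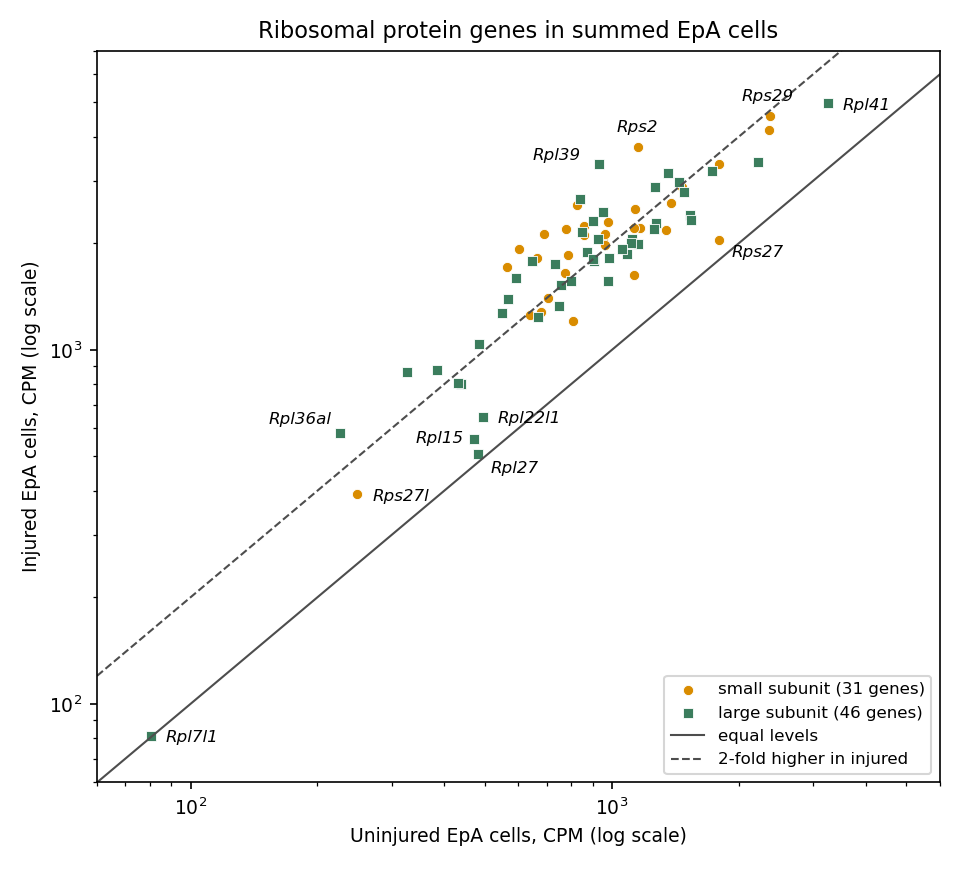
Level of each of the 77 ribosomal protein genes past the floor of 50 CPM, in summed injured EpA cells (vertical axis, CPM, log scale) against summed uninjured EpA cells (horizontal axis, CPM, log scale). All genes lie above the line of equal levels, Rpl7l1 by less than its counting error, and 37 lie on or above the dashed line of a 2-fold higher level in injured cells.

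The genes spanned a wide range of levels. A 3′ library counts a transcript once whatever its length, so CPM can be set side by side between genes, although capture may differ between transcripts. Rpl41, which encodes the smallest protein of the large subunit, ranked first in both libraries, at 4968 CPM in injured and 3260 CPM in uninjured cells (1.52-fold). Rps29, a small zinc-binding protein of the small subunit, ranked next in both, at 4584 CPM in injured and 2377 CPM in uninjured cells (1.93-fold). Rpl38 (3404 CPM in injured and 2225 CPM in uninjured cells), Rps21 (3345 and 1800 CPM), Rpl23 (3207 and 1729 CPM) and Rpl37a (3162 and 1362 CPM) were also abundant in both. The order of other genes differed between the libraries. Rpl39, a short protein of the peptide exit tunnel, ranked 6 in injured and 36 in uninjured cells, while Rps27 ranked 36 in injured and 5 in uninjured cells. The spread of levels around their mean was 45.5% of the mean in injured and 52.9% in uninjured cells.

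The largest ratio belonged to Rpl39, at 3348 CPM in injured and 934 CPM in uninjured cells (3.59-fold, 3.50 to 3.67). Rps2, at the mRNA entry side of the small subunit, had 3755 CPM in injured and 1152 CPM in uninjured cells (3.26-fold, 3.19 to 3.33). Rps26, which lies near the mRNA exit, had 1924 CPM in injured and 602 CPM in uninjured cells (3.19-fold, 3.10 to 3.29). Thus a gene of the large and genes of the small subunit led the list together. Rpl32 stood at 2668 CPM in injured and 839 CPM in uninjured cells (3.18-fold), Rps20 at 2571 and 827 CPM (3.11-fold) and Rps12 at 2121 and 690 CPM (3.07-fold). Rps18, Rpl12 and Rps28 had ratios of 2.82-fold, 2.77-fold and 2.74-fold.

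At the other end were 7 genes under 1.5-fold. Rpl7l1, a paralogue of Rpl7 thought to act in ribosome assembly, had 81.0 CPM in injured and 80.8 CPM in uninjured cells (1.003-fold, 0.917 to 1.10). Rpl27 had 508 CPM in injured and 481 CPM in uninjured cells (1.05-fold, 1.02 to 1.09). Rps27, a zinc-binding protein of the small subunit, had 2041 CPM in injured and 1800 CPM in uninjured cells (1.13-fold, 1.11 to 1.16). The low ratios were thus found in genes of very different level. Rpl15 had 559 CPM in injured and 471 CPM in uninjured cells (1.19-fold, 1.14 to 1.23), and Rpl22l1 647 and 494 CPM (1.31-fold, 1.26 to 1.36). Rps3a1 (1.45-fold) and Rps25 (1.49-fold) completed the group, with Rpl9 (1.51-fold), Rpl41 and Rpl38 (1.53-fold) just above it.

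Rps6, Rpl5, Rpl11, Rps27a, Rpl13a, Rps3 and Rps19 were named from a written list. Rps6, whose protein is phosphorylated by S6 kinase downstream of mTOR, had 1282 CPM in injured and 679 CPM in uninjured cells (1.89-fold, 1.83 to 1.94). Rpl5 and Rpl11, which form the 5S particle that can bind Mdm2, stood at 1326 against 750 CPM (1.77-fold) and at 1866 against 1088 CPM (1.72-fold) in injured against uninjured cells. Rps27a, made as a fusion with ubiquitin, reached 1.96-fold, Rpl13a 1.96-fold and Rps3 2.05-fold. Rps19, a gene mutated in human Diamond-Blackfan anaemia, reached 2.34-fold, at 2298 CPM in injured and 981 CPM in uninjured cells.

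Paralogues had unequal ratios. Rpl22 stood at 1393 CPM in injured and 568 CPM in uninjured cells (2.45-fold, 2.37 to 2.53), and its paralogue Rpl22l1 at 1.31-fold. Rpl36al stood at 584 CPM in injured and 226 CPM in uninjured cells (2.58-fold, 2.46 to 2.72), above its partner Rpl36a at 1.95-fold (1.90 to 2.01). Rps27l, known in mouse and human cells as a p53 target, stood at 391 CPM in injured and 249 CPM in uninjured cells (1.57-fold, 1.49 to 1.65), against 1.13-fold for Rps27. In each pair the intervals of the paralogues' ratios did not overlap, but they cover counting error only and are narrow at such UMI counts. Rpl36a, Rpl36al, Rps27 and Rpl22l1 share much of their 3′ ends with other annotated genes, so their levels are uncertain, as set out below. Whether the paralogues differ was not tested.

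The 3 genes under the floor are named like paralogues, but Rpl6l is annotated as a processed pseudogene. It is the only gene of the family not annotated as protein-coding. Rpl3l, known from heart and skeletal muscle, had 4 UMIs in injured and 0 in uninjured EpA cells. Rpl39l, known from testis, had 0 UMIs in EpA cells of either library. The upper bounds of its intervals were 0.146 CPM in injured and 0.480 CPM in uninjured EpA cells. Outside EpA it had 4 UMIs in injured and 3 in uninjured cells. Rpl6l had 25.2 CPM in injured and 7.28 CPM in uninjured EpA cells.

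The starts of the genes at both ends of the ratio are shown because the TOP motif lies there. Starts from RefSeq, build GRCm38.p6, were available for 60 of the 80 genes, and the first listed start of each was used. Each line gives 30 bases, 15 before the start and 15 from it on, in the direction of transcription, and capitals mark the longest run that begins with C and continues in C or T for at least 6 bases. The 5 matched genes with the largest ratios were these.
Rpl39: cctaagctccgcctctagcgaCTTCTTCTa
Rps2: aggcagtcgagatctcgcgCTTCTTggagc
Rps26: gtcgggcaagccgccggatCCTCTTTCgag
Rps12: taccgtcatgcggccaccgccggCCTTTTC
Rps18: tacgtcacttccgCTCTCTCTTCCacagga
The windows are chrX:37085208-37085237 (minus strand) for Rpl39, chr17:24720048-24720077 (plus) for Rps2, chr10:128626492-128626521 (minus) for Rps26, chr10:23787195-23787224 (minus) for Rps12 and chr17:33955651-33955680 (minus) for Rps18. The 5 matched genes with the smallest ratios, and Rps6, follow.
Rpl7l1: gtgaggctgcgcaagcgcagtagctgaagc
Rpl27: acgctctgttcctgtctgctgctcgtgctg
Rps27: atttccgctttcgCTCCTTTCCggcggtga
Rpl15: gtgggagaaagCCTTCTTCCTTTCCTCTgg
Rpl22l1: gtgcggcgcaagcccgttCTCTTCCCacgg
Rps6: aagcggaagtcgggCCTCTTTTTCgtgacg
These windows are chr17:46782642-46782671 (minus) for Rpl7l1, chr11:101442230-101442259 (plus) for Rpl27, chr3:90213634-90213663 (minus) for Rps27, chr14:18270972-18271001 (minus) for Rpl15, chr3:28805493-28805522 (plus) for Rpl22l1 and chr4:86857353-86857382 (minus) for Rps6. A run was present in all 5 windows of the first set and in 3 of 5 of the second, the longest of them, 17 bases, in Rpl15. Rpl7l1 and Rpl27 had none in this window. The RefSeq starts used differ from the outermost GENCODE start of the gene. For Rpl27 the RefSeq start lies 53 bases upstream of it. In the other 10 genes it lies downstream, by 3 bases in Rps27, 16 in Rpl7l1, 45 in Rps6, 66 in Rps12, 72 in Rpl22l1, 180 in Rpl39, 241 in Rps26, 336 in Rps18, 405 in Rpl15 and 1947 in Rps2. Which start these cells use was not tested.

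Such a run was found in 32 of the 60 matched genes (53.3%), against 22.4% of the 27025 mouse genes with a start in the same table. The letters CCGGAAG, the core bound by ETS-family factors, were found on either strand between 250 bases before and 50 after the start in 38.3% of the matched genes and in 9.12% of all genes. ATGGCGG, contained in the YY1 motif, was found in 16.7%, against 4.19% of all genes, and matches that overlapped another motif were kept. TATAAA was found in 8.33%, against 14.2% of all genes. Of the matched genes at the floor, 17 of 31 with a run and 12 of 27 without were at least 2-fold higher in injured cells, against 10.9% of all genes. The median log2 ratio was 1.09 with and 0.96 without a run, with ranges of 0.18 to 1.84 and 0.00 to 1.45, and the difference was not tested.

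Many ribosomal protein genes have processed pseudogenes, so reads from their 3′ ends can match several genes. Words of 60 bases from the last 400 bases of each transcript were looked up in all other annotated transcripts. At least 50% of the words were shared with another gene in 34 of the 77 genes, and their median log2 ratio was 0.94, against 1.01 in the other 43. Of the genes at the low end, Rpl27 shared 87.7% and Rps27 72.7% of its words, while Rpl15 and Rpl7l1 shared 0%. Of those at the high end, Rps2 shared 80.9% and Rpl39 20.8%. How the authors' counting assigned such reads is not given in the sources used here, so the levels of genes with shared ends are uncertain.

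Related genes were looked at from lists. Ribosomal proteins outside the naming rule had 5 of 7 at least 2-fold higher in injured cells and 0 lower. Rpsa, a small-subunit protein also known as the laminin receptor, had 3542 CPM in injured and 815 CPM in uninjured cells (4.34-fold, 4.23 to 4.46), above every gene of the family proper. Rplp0, of the ribosomal stalk, had 2824 CPM in injured and 838 CPM in uninjured cells (3.37-fold), while its stalk partners Rplp1 and Rplp2 stood at 2.17-fold and 1.61-fold. Among 15 elongation and other TOP-type genes, 9 were higher and 0 lower, led by Eef2 (3.50-fold), Pabpc1 (3.35-fold) and Eef1a1 (5055 CPM in injured and 1636 CPM in uninjured cells, 3.09-fold).

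Genes of ribosome assembly were less abundant, with 18 of 31 at the floor, of which 6 were higher and 0 lower (median log2 ratio 0.87). Ddx21, a nucleolar helicase, stood at 119 CPM in injured and 47.1 CPM in uninjured cells (2.53-fold), and Nop10 at 187 and 186 CPM (1.004-fold). Mitochondrial ribosomal protein genes, which serve a separate ribosome, had 4 of 55 higher and 0 lower, with a median log2 ratio of 0.31. Over all genes at the floor 10.9% were higher and 13.8% lower, so the share of higher mitochondrial ribosomal protein genes did not exceed that of all genes. In the same cells 73 of 75 cilium genes were at least 2-fold lower (median log2 ratio -1.52) and 19 of 20 G2M genes, those of G2 and mitosis, at least 2-fold higher.

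The share of a cell's UMIs that came from ribosomal protein genes was compared at an equal depth of 2000 randomly drawn UMIs, which 992 injured and 547 uninjured EpA cells reached. Its median was 13.1% in injured cells (quartiles 8.50 and 17.9%) and 7.55% in uninjured cells (6.65 and 8.60%). Without thinning the medians were 13.2% in injured and 7.64% in uninjured cells. The uninjured cells formed a narrow band, with 95% of them at or under 10.1%, whereas the injured cells spread from that band to far above it. Of the injured cells, 623 of 992 (62.8%, 59.7 to 65.8) lay above that value.

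The spread followed the cilium genes. The lowest 5% of uninjured EpA cells had under 1.5% of their UMIs in cilium genes, and cells below this value are called below the cilium range. In the injured library 571 cells were below the range and 421 in it, and 164 lay within 20% of the dividing value. The median ribosomal protein share was 17.4% (14.6 and 19.5%) in injured cells below the range, 8.35% (7.05 and 9.80%) in injured cells in it and 7.55% in uninjured cells in it. Above the 10.1% mark were 535 of 571 injured cells below the range (93.7%, 91.4 to 95.5) and 88 of 421 in it (20.9%, 17.1 to 25.1). The 27 uninjured cells below the range had a median of 7.90%, but their cilium share, with a median of 1.30%, lay close to the line, against 0.25% in injured cells below it.

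**Figure D2:**
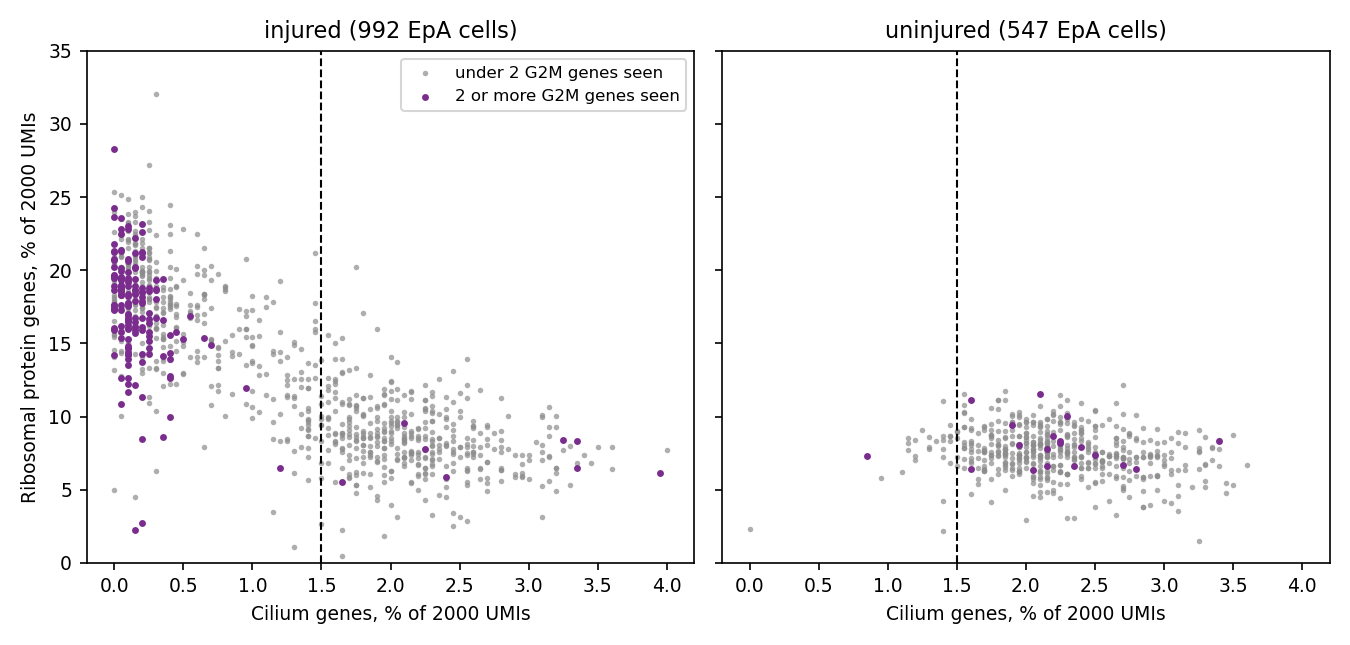
Ribosomal protein share (vertical axis, % of 2000 UMIs) against cilium gene share (horizontal axis, % of 2000 UMIs) of each EpA cell, in the injured (left) and uninjured (right) library. The dashed line marks 1.5%, and purple points are cells with 2 or more G2M genes seen. Injured cells left of the line have a median of 17.4%, those right of it 8.35%, and uninjured cells as a whole 7.55%.

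With the cells of each library split at the quartiles of the cilium share, the median ribosomal protein share, low to high cilium share, was 18.7, 17.1, 9.55 and 7.80% in injured cells and 7.80, 7.65, 7.68 and 7.15% in uninjured cells. Spearman's rho across cells, given as a description, was -0.80 in the injured (992 cells) and -0.20 in the uninjured library (547 cells). Both shares have the same total, so part of a negative relation is built in. With the cilium share taken of the other genes' UMIs alone, rho was -0.78 in the injured and -0.13 in the uninjured library. Within the injured library and with this measure it was -0.43 over the 571 cells below the range and -0.19 over the 421 cells in it.

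Depth and mitochondrial share moved with the ribosomal protein share in the injured library. Injured cells below the cilium range had a median of 28166 UMIs before thinning and 5.05% mitochondrial transcripts, injured cells in the range 11390 UMIs and 8.74%, and uninjured cells in the range 11389.5 UMIs and 11.1%. The part of depth and of mitochondrial share in the result was not tested. At 10000 to 20000 UMIs the median share was 15.9% in 128 injured cells below the range, 8.50% in 182 injured cells in it and 7.65% in 258 uninjured cells in it. At 20000 to 40000 UMIs it was 17.7% in 252 cells, 8.60% in 84 cells and 7.50% in 102 cells of the same groups. At 5000 to 10000 UMIs the gap was smaller, with 10.0% in 24 cells, 7.90% in 132 cells and 7.50% in 150 cells. These 24 injured cells lay close to the line, with a median cilium share of 1.225%. Injured cells below the range had 0.65% at 10000 to 20000 and 0.2% at 20000 to 40000 UMIs. Depth and cilium share thus differed together in these cells.

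**Figure D3:**
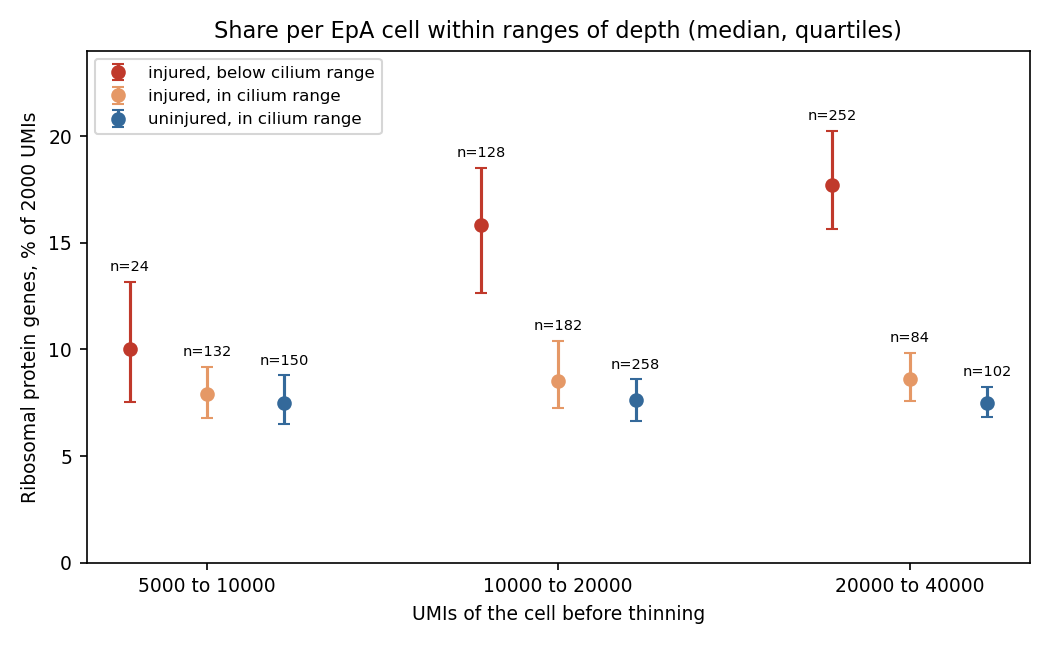
Median ribosomal protein share (vertical axis, % of 2000 UMIs; bars, quartiles; n, cells) of EpA cells by their UMIs before thinning (horizontal axis). Injured cells below the cilium range stand at 10.0, 15.9 and 17.7% from low to high depth, while injured cells in the range stay between 7.90 and 8.60% and uninjured cells in it between 7.50 and 7.65%. The median cilium share of the injured cells below the range also differs with depth, at 1.225, 0.65 and 0.2% from low to high.

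Cells with dividing-cell transcripts were compared with the others before and after restriction to cells below the cilium range. Over all injured EpA cells, the 167 cells with 2 or more G2M genes seen at 2000 UMIs had a median of 17.4%, against 11.4% in the other 825. Below the cilium range the same medians were 17.7% in 159 cells with and 17.4% in 412 cells without 2 G2M genes. At over 40000 UMIs they were 18.4% in 102 and 18% in 63 such cells, and at 20000 to 40000 UMIs 17.1% in 48 and 17.7% in 204. At 10000 to 20000 UMIs they were 14.2% in 8 cells with and 16.15% in 120 cells without 2 G2M genes. At 5000 to 10000 UMIs the values were 6.5% in 1 and 10.15% in 23. The 8 injured cells in the cilium range with 2 or more G2M genes had a median of 7.15%. In the uninjured library 19 cells with 2 or more G2M genes had a median of 7.95%, against 7.55% in the other 528. Of these 19 cells, 18 lay in the cilium range and 1 had 4 or more G2M genes, which 120 injured EpA cells had. Whether the cells in the cilium range with 2 or more G2M genes, in either library, were dividing was not tested. A cell with few UMIs of division genes can be missed at this depth.

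Gene by gene, cells below the cilium range in the injured library were set against those in it. Of 77 genes at the floor, 42 were at least 2-fold higher and 0 lower, where 12.1% of 3797 genes were higher and 18.8% lower, and the median log2 ratio was 1.03. Both groups of cells come from the same library. At 10000 to 20000 UMIs it gave 16 genes higher and 0 lower, where 5.01% of all genes were higher and 11.9% lower, with a median of 0.84. Against uninjured cells in the range, injured cells below it had 57 genes higher and 0 lower, where 15.2% of 3825 genes were higher and 19.9% lower, with a median of 1.17.

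Injured cells in the cilium range, set against uninjured cells in the range, gave 0 genes higher and 0 lower at 2-fold, where 0.79% of 3418 genes were higher and 0.0878% lower. The median log2 ratio was 0.20, against 0.04 over all these genes, and 65 of 77 genes had a ratio above 1, against 57.7% of all genes. Rpl39 was again the highest, with 1368 CPM in injured and 930 CPM in uninjured cells (1.47-fold, 1.43 to 1.52). Injured cells in the range thus held a sum of 87689 CPM of ribosomal protein transcripts, against 76283 CPM in uninjured cells in it, while injured cells below the range held 175834 CPM.

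Rpl27 and Rpl15 stood apart in this split, a pair singled out after its values were seen. Rpl27 had 567 CPM in injured cells below the range, 318 CPM in injured cells in it and 482 CPM in uninjured cells in it. Rpl15 had 636, 312 and 469 CPM in the same groups. Within the injured library both therefore followed the family, at 1.79-fold and 2.04-fold below over in the range. Between the libraries, among cells in the range, both were lower in injured cells, at 0.658-fold (0.622 to 0.696) and 0.665-fold (0.629 to 0.704), and the next lowest gene, Rpl41, stood at 0.877-fold.

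Rps27 differed from that pair, with 2145 CPM in injured cells below the range, 1710 CPM in injured cells in it and 1802 CPM in uninjured cells in it, so it differed little in either step. Rpl38 had 3553, 2925 and 2237 CPM and Rpl7l1 82.4, 76.8 and 80.0 CPM in the same groups. Rps2 showed the opposite of these, with 4542, 1236 and 1140 CPM, the largest ratio of the family below over in the range (3.67-fold, 3.59 to 3.76). Rps6 had 1485, 630 and 677 CPM, a 2.36-fold ratio below over in the range.

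**Figure D4:**
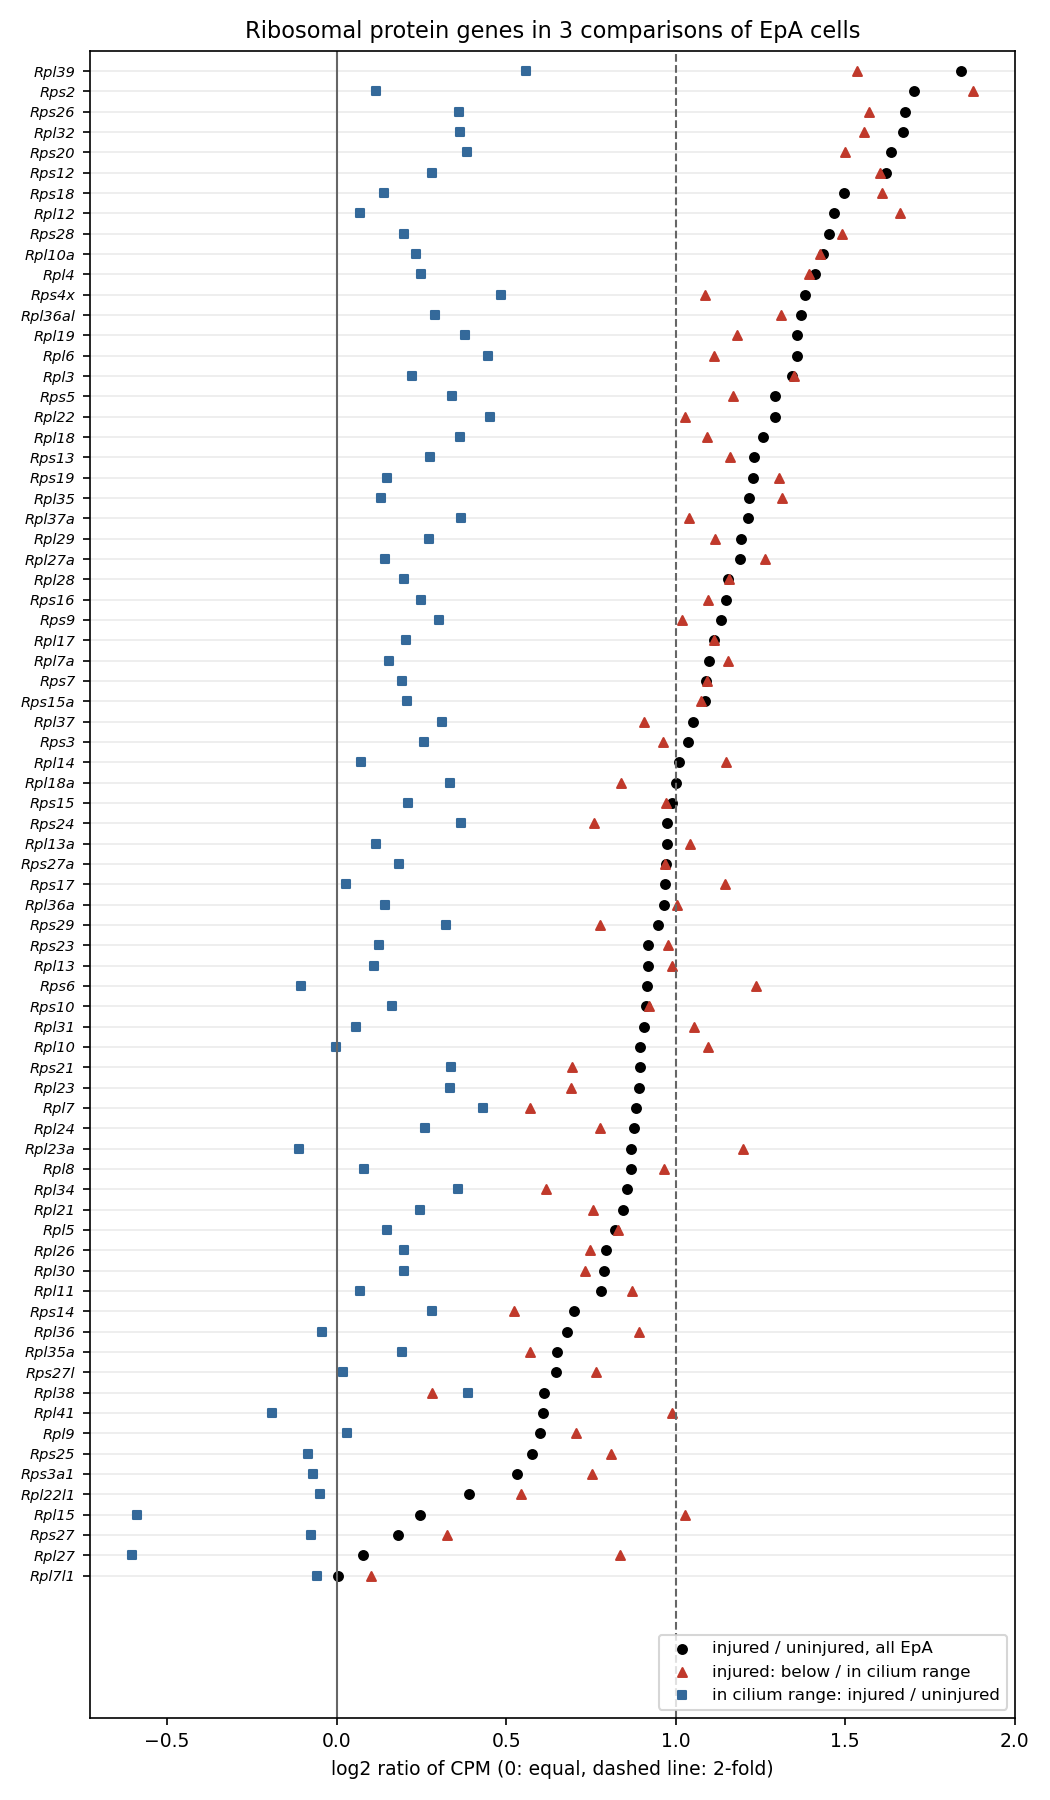
log2 ratio of CPM (horizontal axis) of single ribosomal protein genes at the floor, ordered by injured over uninjured EpA cells (black circles), with injured cells below over in the cilium range (red triangles) and injured over uninjured cells in the range (blue squares). Over all 77 genes the medians are 1.03 for the triangles' contrast and 0.20 for that of the squares, with Rpl27 and Rpl15 as the 2 lowest squares.

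Among cells below the cilium range, those with 2 or more G2M genes were set against those with fewer. Of the 77 genes, 0 were higher and 0 lower at 2-fold, where 7.38% of all 3400 genes were higher and 6.32% lower, and the median log2 ratio was 0.02. Rps27l had the largest value, 1.47-fold, and Rps2 stood at 1.32-fold. Rps27 had the smallest, 0.823-fold. Genes of ribosome assembly had a median log2 ratio of 0.38 in this contrast, against 0.08 over all genes, and 0 of 20 were higher and 0 lower at 2-fold.

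Outside the naming rule and among 1093 abundant genes, those most like the summed ribosomal protein share were Rplp0, Rplp1, Eef1a1, Tpt1 and Rpsa. Of these, Rplp0, Rplp1 and Rpsa are themselves ribosomal protein genes. Likeness over single cells was ranked by the smaller Spearman rho of the 2 libraries. For Rplp0 it was 0.76 over 992 injured and 0.36 over 547 uninjured cells. Eef1a1 had 0.80 in injured and 0.25 in uninjured cells. Cells of a library share its depth and composition, so these values are descriptions.

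Clusters of kept cells, formed without the ribosomal protein genes, split in the same way. The leading genes given are those of all kept cells of a cluster, not of its EpA cells alone. Cluster 0 held 139 kept cells, among them 13 injured and 4 uninjured cells outside EpA. Injured EpA cells of cluster 2 (led by Crym, 216 cells) had a median unthinned share of 18.5%, of cluster 0 (led by neutrophil granule and mitosis genes and left unnamed, 117 cells) 17.8% and of cluster 1 (led by Gfap, 197 cells) 16.4%. Injured EpA cells of cluster 4 (led by C3, 104 cells) had 9.92%, of cluster 3 (292 cells) 8.16% and of cluster 7 (78 cells) 7.92%. Clusters 3 and 7 also held most uninjured EpA cells, with 7.54% in 415 and 7.74% in 130 cells. Clusters 1 and 2 held 0 uninjured cells, so cluster and library cannot be told apart there.

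Cells kept outside EpA were named by fixed markers, and some clusters stayed unnamed. Among the unnamed, cluster 10 (led by Cd74) had the highest median thinned share, 36.8% in 21 injured and 33.1% in 4 uninjured cells. Cells of cluster 0 outside EpA had 30.35% in 13 injured and 7.8% in 4 uninjured cells. The named types follow. Endothelial-like cells had a median thinned share of 20.2% in 100 injured and 15% in 45 uninjured cells. Microglia or macrophage-like cells had 17.9% in 26 injured and 12.1% in 30 uninjured cells, and fibroblast-like cells 22% in 27 injured and 16.4% in 11 uninjured cells. The last value rests on few cells, since 19 of 30 uninjured fibroblast-like cells had fewer than 2000 UMIs: without thinning the medians were 21.4% in 36 injured and 19.5% in 30 uninjured fibroblast-like cells. Astrocyte-like cells were lowest, at 5.90% in 6 injured and 1.33% in 26 uninjured cells. Each named type was thus higher in the injured library, and uninjured EpA cells lay between astrocyte-like and microglia or macrophage-like cells. Depth differed within types: the endothelial-like cells had a median of 28224.5 UMIs in injured and 8919 in uninjured cells, and the fibroblast-like cells 18693 in injured and 1131.5 in uninjured cells. Haemoglobin transcripts made up 0% of UMIs in injured and 2.72% in uninjured endothelial-like cells. The part of either in the shares was not tested.

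**Figure D5:**
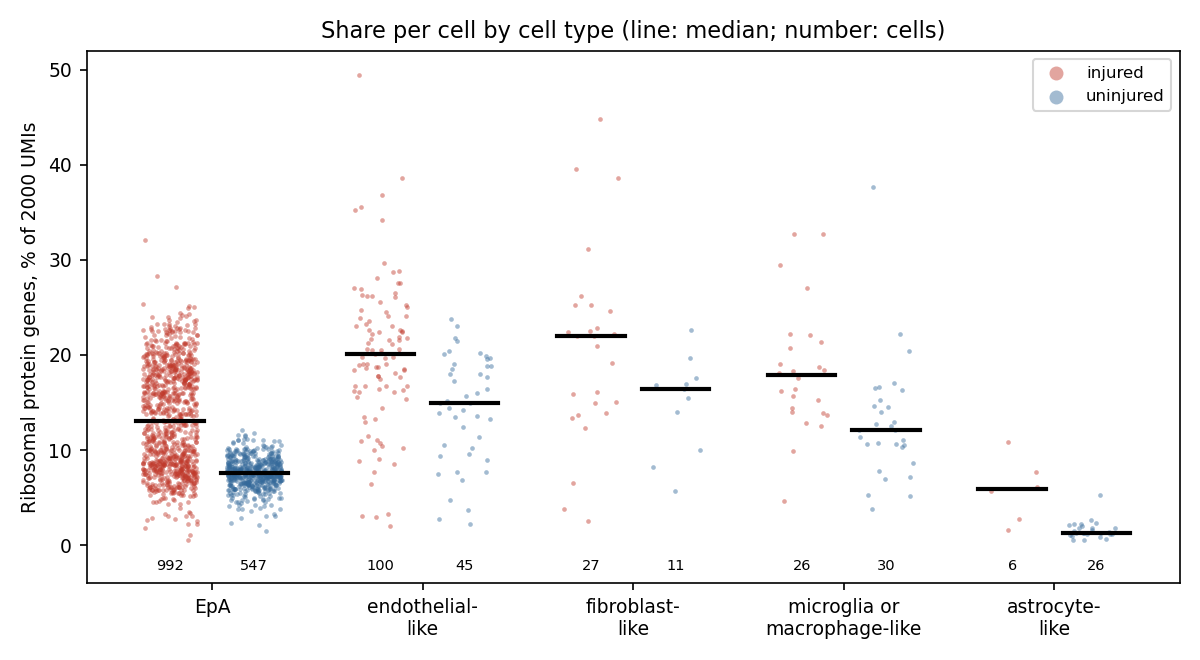
Ribosomal protein share of each cell (vertical axis, % of 2000 UMIs) by cell type, injured (red, left of each pair) and uninjured (blue), with the median as a line and the number of cells below. The injured median is the higher one in all 5 types shown, among them 5.90 against 1.33% in astrocyte-like and 20.2 against 15% in endothelial-like cells. The uninjured fibroblast-like median rests on 11 of 30 cells, and the medians of all fibroblast-like cells without thinning are 21.4 against 19.5%.

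Gene by gene, 76 genes could be compared outside EpA at a floor of 200 CPM. In endothelial-like cells 4 were higher and 0 lower, where 20.1% of 900 genes were higher and 19.3% lower. In microglia or macrophage-like cells 4 were higher and 0 lower (23.6% of 874 genes higher, 21.9% lower), and in fibroblast-like cells 2 were higher and 0 lower (17.7% of 934 genes higher, 16.6% lower). The median log2 ratios of 0.42, 0.40 and 0.47 lay close to the medians over all genes, 0.34, 0.27 and 0.40. Whether these differ from the values in EpA cells was not tested.

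Rps2 was at least 2-fold higher in all 3 types: it had 5869 CPM in injured and 1763 CPM in uninjured endothelial-like cells, 3174 and 1296 CPM in microglia or macrophage-like cells, and 5489 and 2356 CPM in fibroblast-like cells. Rps27 had 2247 CPM in injured and 3513 CPM in uninjured endothelial-like cells, and 1938 and 2645 CPM in microglia or macrophage-like cells. In fibroblast-like cells Rps27 was nearly level, at 2516 CPM in injured and 2562 CPM in uninjured cells. Rpl15 had 783 CPM in injured and 879 CPM in uninjured endothelial-like cells. Rpl22l1, at 1.31-fold in EpA cells, had 842 CPM in injured and 401 CPM in uninjured endothelial-like cells. Its levels lay closer together in microglia or macrophage-like cells (482 CPM in injured and 315 CPM in uninjured) and in fibroblast-like cells (1180 and 886 CPM).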

How the data were processed

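Per the labels' protocols, libraries were made with the 10x Genomics 3′ kit v2; the submitters' processing notes name Cell Ranger 3.0.1, Seurat and build mm10. The deposited values are raw UMI counts per gene and cell, and values of shared cells were identical between the authors' tables. For each library, EpA cells' UMIs were summed per gene and expressed as CPM; log2 ratios added 0.5 UMIs. Calls used size alone: 50 CPM in either library (200 outside EpA) and 2-fold. Intervals are Poisson (levels), conditional binomial (ratios) and Clopper-Pearson (shares), and say nothing of variation between mice. Thinning to 2000 UMIs left out 12 injured and 8 uninjured EpA cells. Kept cells were clustered with scanpy 1.11.5 (2000 variable genes, 20 components, 15 neighbours, Leiden resolution 0.5); the limit on other markers in a named cluster was set after the clusters were seen. The script for ratios was tested on simulated data. Doublets were not removed: Scrublet called 4 of 1566 injured and 4 of 876 uninjured barcodes, too few to have worked. Named genes were the 8 most abundant, the 10 largest and 10 smallest ratios, paralogues with their partners, and Rps6, Rps27a, Rpl5, Rpl11, Rpl13a, Rps3 and Rps19; some of them are not reported here. The genes, lists and rules were chosen with earlier results of these data known. Alternatives covered scaling (with edgeR 4.0.16 and DESeq2 1.42.0 factors), floor, weighting and cell sets.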

Additional observations from a re-analysis of the deposited data

Results flagged for a closer look

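Barcodes that the authors did not keep are outside every comparison above and carried the same kind of difference. The median ribosomal protein share was 15.3% (quartiles 4.09 and 24.2%) over 338 such barcodes of the injured library and 8.29% (3.55 and 15.2%) over 165 of the uninjured library, with a median of 2350 UMIs in injured and 2272 UMIs in uninjured barcodes. What these barcodes hold was not tested.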

How the results depend on the processing

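No alternative reversed a direction, and 0 genes met the rule for lower under all 16 alternatives. The count of 37 higher genes was 19 with every cell weighted alike, 19 after thinning to 2000 UMIs, 2 among EpA cells of 5000 to 20000 UMIs and 75 for UMIs per cell without scaling; under the other 12 it lay between 27 and 54. The median log2 ratio of 0.98 was 1.04 with TMM, 1.05 with DESeq2 factors, 0.89 without mitochondrial genes in the total, 1.10 without the family in the total, 1.84 for UMIs per cell, 0.77 with cells weighted alike, 0.78 after thinning, 0.58 at 5000 to 20000 UMIs, 1.03 under 10% mitochondrial UMIs, 0.88 without cells holding a division gene and 0.92 without the 5% of cells with most UMIs. UMIs per cell moved the median of all genes by 0.87. The difference in median share, 5.50 percentage points, was 6.75 in all kept cells, 6.70 in all barcodes, 1.75 at 5000 to 20000 UMIs, 7.58 under 10% mitochondrial UMIs and 3.30 without cells holding a division gene; the cause was not tested. Weighting and thinning give cells of high UMI count less weight by construction. The range of 5000 to 20000 UMIs also changed the mix of injured cells. Of the 571 injured cells below the cilium range it took 24 at 5000 to 10000 and 128 at 10000 to 20000 UMIs. Of the 421 in the cilium range it took 132 and 182. The part of depth in these changes was not tested. No paired analysis was possible because each condition has 1 library. Intervals cover counting error only, and the spread between mice is unknown.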
